A study of Mus musculus with 5 samples.

Results

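The lysosome is the acidic compartment in which cells break down proteins, glycans and lipids, and its hydrolases are paired with membrane proteins that protect and serve the organelle. The vacuolar H+-ATPase (V-ATPase) is the rotary pump that acidifies it, with a membrane sector (V0) that carries protons and a cytosolic sector (V1) that hydrolyses ATP. In the kidney, proximal tubule cells depend on lysosomes to degrade the proteins that they take up from the filtrate, and the folliculin and Fnip proteins act at the lysosomal surface, upstream of the transcription factors TFEB and TFE3 that bind the promoters of many lysosomal genes.

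Transcripts of these genes were compared between Fnip1 null and wildtype kidney. Members were the 45 lysosomal genes listed by name together with every gene whose symbol marks a V-ATPase subunit or accessory protein, except Atp6v1b1, Atp6v0d2, Atp6v0a4, Atp6v1g3 and Atp6v1c2, and they came to 66 of the 24421 genes counted. RNA sequencing was performed on flash-frozen cortical kidney tissue of 3 Fnip1 null mice (Fnip1-/-, mice 8637, 9210 and 9121) and 2 wildtype mice (Fnip1+/+, mice 9055 and 9056), all on the C57BL6J background, with 1 library per mouse and no treatment. The null allele came from chemical (ENU) mutagenesis and was constitutive, so every cell of the cortex and of the rest of the animal carried it. The labels give the controls as Fnip1+/+, whereas the study's own text on the RNA sequencing names Fnip1+/- controls, and whether the wildtype mice carried a null allele was not tested. The labels give neither age nor sex. The tissue was taken whole, and in such bulk RNA fewer cells of a type and less RNA per cell cannot be told apart.

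Gene counts per mouse ran from 15799114 to 19132145, and 3 counts in a mouse correspond to 0.158 to 0.186 CPM (counts scaled to a common library size, here after normalization by the trimmed mean of M-values, TMM). Fnip1 itself read 21.0, 16.9 and 16.0 CPM in null mice 8637, 9210 and 9121, against 51.7 and 48.6 CPM in the wildtype mice (log2 fold change -1.48, SE 0.14, adjusted p = 0.0313 by edgeR's quasi-likelihood test), so the labels and the targeted transcript point the same way. The labelled tissue was checked with 9 proximal tubule markers, whose summed level was 9665 to 12633 CPM in null and 13348 to 14982 CPM in wildtype mice. Mouse 9121 stood apart in sex-linked transcripts, with 5954 counts of Xist and no Y-linked gene of 4 above 0.369 CPM. The other mice had 3 to 24 counts of Xist and expressed all 4. By these transcripts mouse 9121 was female and the others, with both wildtype mice among them, were male. Sex was thus mixed in the null group only, and its part in the levels was not tested. Adipocyte markers summed to 338 CPM in mouse 9210 and 158 CPM in mouse 9121, against 35.2 to 53.8 CPM in the other 3. B cell markers were close to absent, since 4 of 5 were too low to be tested and Cd79b was at most 1.49 CPM.

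Of the 66 members, 63 had enough counts to be tested. The processed pseudogene Atp6v0c-ps2 had 1 to 4 counts per mouse, Atp6v1e2, a V1 subunit E isoform known from testis, had 2 counts in mouse 8637 and none in the others, and Atp6ap1l had none. Expression of Atp6v1e2 and Atp6ap1l was not detectable at this depth, for which 3 counts were taken as the floor.

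Hexa was the only member that passed the test. It encodes the alpha subunit of beta-hexosaminidase A, the enzyme that degrades ganglioside GM2. Its level was 104, 132 and 131 CPM in null mice 8637, 9210 and 9121, and 59.0 and 55.8 CPM in wildtype mice 9055 and 9056. Every null mouse was well above both wildtype mice, and the null mouse closest to them was 8637. The means were 123 ± 15.9 CPM (SD, n = 3) and 57.4 ± 2.30 CPM (SD, n = 2), a 2.14-fold higher level (log2 fold change 1.10, SE 0.13, adjusted p = 0.0390 by edgeR's quasi-likelihood test). The gene lies at chr9:59539540-59565109 on the plus strand (GRCm38). Some 12.8% of its exon bases overlap Tmem202 on the opposite strand, which had 2 to 6 counts per mouse. Hexa was called in 9 of 12 alternative settings, with a log2 fold change of 1.04 to 1.26 and an adjusted p from 6.34e-09 to 0.506. It lost the call without null mouse 9210 (adjusted p = 0.169), without wildtype mouse 9055 (0.212) and without wildtype mouse 9056 (0.506). In those 3 fits the quasi-likelihood test called no gene of 13874, although 2048, 2460 and 1225 genes had an unadjusted p under 0.05, and leaving out a wildtype mouse leaves that genotype with 1 library.

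That was 1 member of 63 at a false discovery rate of 5% with a change of at least 2-fold, a rule that 0.404% of the 13874 genes tested met in the higher direction and 0.130% in the lower. At the false discovery rate alone it was again 1 member of 63, against 0.555% of all genes higher and 0.180% lower. The other 62 had adjusted p-values from 0.0646 to 0.997.

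Most members were near their wildtype level. The log2 fold change was within 0.25 of 0 for 43 of 63 members (68.3%), against 53.8% of all genes tested, and within 0.5 for 55 (75.6% of all genes). Its median over the members was 0.03, and 0.00 over all genes. Its standard error had a median of 0.12 over the members and 0.15 over all genes, which these shares do not account for. All 3 null mice lay above both wildtype mice for 19 members (30.2%, against 22.9% of all genes), and below both for 15 (23.8%, against 23.0%), while the genotypes overlapped for 29. With libraries scaled by their total alone, which shifted the log2 fold changes of all genes by a median of 0.16, 32 lay above (37.2% of all genes) and 7 below (11.4%). An unadjusted p under 0.05 was found for 10 members with a higher and 7 with a lower level, 27.0% of the members against 25.1% of all genes. Summed over the tested members, the level was 17627, 17878 and 16484 CPM in null mice 8637, 9210 and 9121 and 17421 and 18242 CPM in wildtype mice 9055 and 9056, which overlap.

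**Figure D1:**
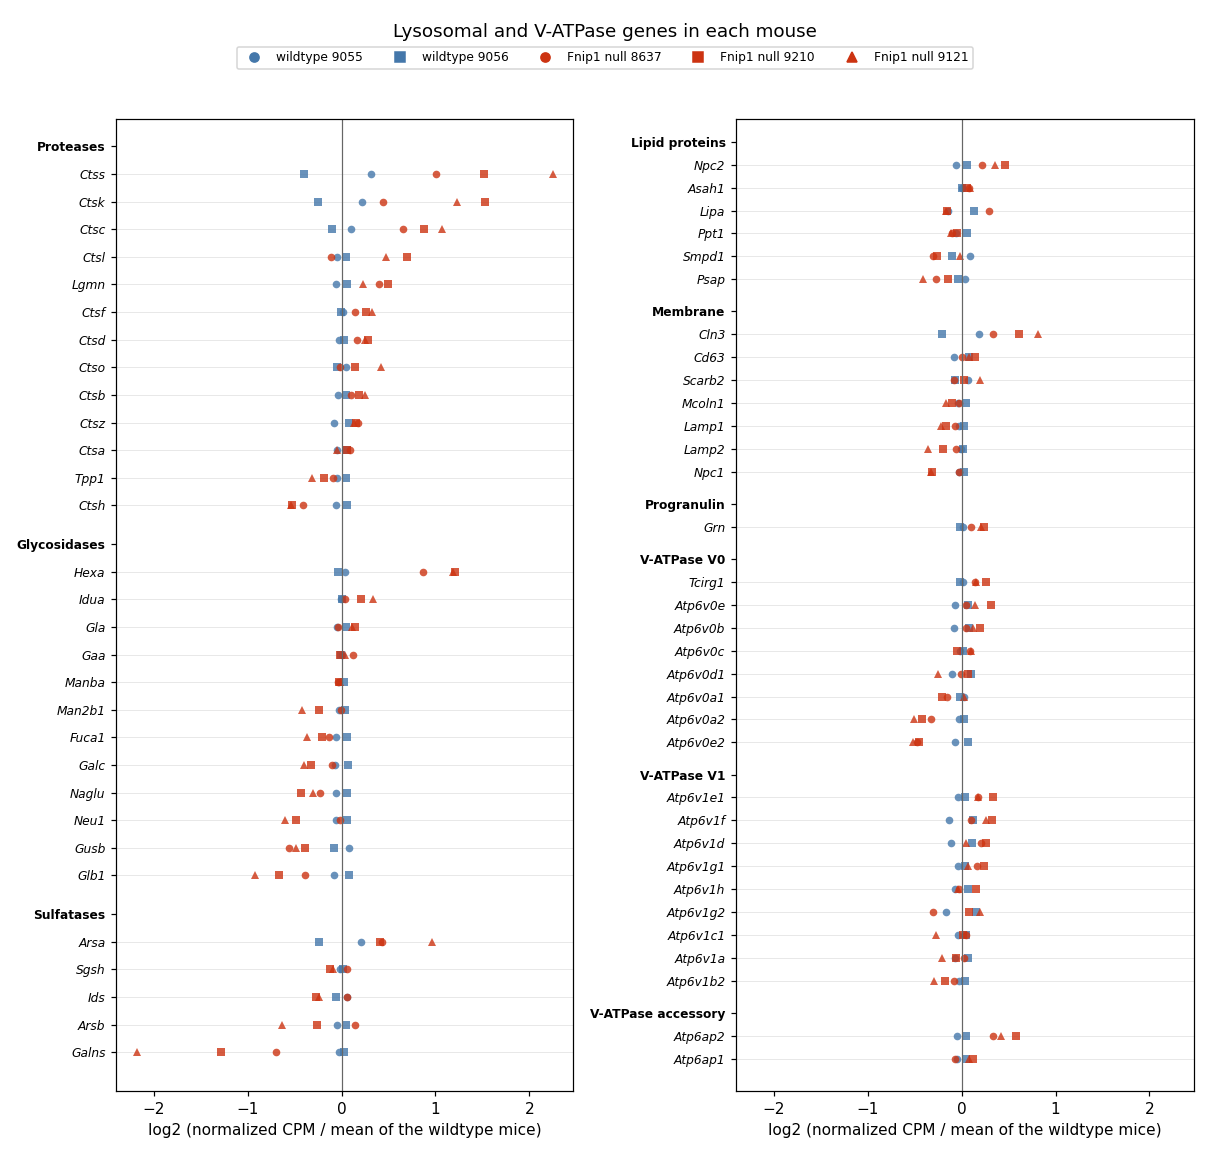
Each of the 63 tested members (rows, grouped by role) in each of the 5 mice, as the log2 of its normalized CPM over the mean of the 2 wildtype mice (horizontal axis). Most rows lie within 0.5 of 0, most proteases lie to the right, and Ctss, Galns and Ctsk spread widest. Galns is at its lowest in mouse 9121.

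The members are described by role, and role groups were not tested against each other. Of all genes tested, 22.9% lay above and 23.0% below the wildtype range, and 25.1% had an unadjusted quasi-likelihood p under 0.05. The proteases lay mostly above wildtype, with 8 of 13 above and 2 below the wildtype range and a median log2 fold change of 0.23. The summed protease level was 4315, 4847 and 4568 CPM in null mice 8637, 9210 and 9121 and 3874 and 4112 CPM in wildtype mice 9055 and 9056. These do not overlap, and 5 of the 13 had an unadjusted p under 0.05 on the higher side and 1 on the lower. Of the 12 glycosidases, 2 lay above and 5 below the wildtype range, with a median of -0.22, and without Hexa it was 1 of 11 above and a median of -0.23. The sulfatases had 1 of 5 above and 1 below (median -0.15), the lipid-handling proteins of the lumen 2 of 6 above and 1 below (median -0.04), and the membrane proteins 1 of 7 above and 3 below (median -0.10).

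Among the proteases, Ctss, Ctsc and Ctsh stood out, and none of the 3 passed the test. Ctss encodes cathepsin S, a cysteine protease of antigen-presenting cells that trims the invariant chain of MHC class II. It read 15.5, 22.0 and 36.7 CPM in null mice 8637, 9210 and 9121 and 9.62 and 5.83 CPM in wildtype mice. The groups did not overlap, but the null mice differed among themselves by more than the wildtype mice did. The log2 fold change of 1.69 (SE 0.41) had an adjusted p of 0.0959 by the quasi-likelihood test, and without mouse 9121 it was 1.29. Ctsc, which encodes dipeptidyl peptidase 1, the activator of granule serine proteases, read 29.0, 34.0 and 38.7 CPM in the null mice and 19.8 and 17.1 CPM in the wildtype mice (log2 fold change 0.88, SE 0.15, adjusted p = 0.0646). Ctsk, the collagen-degrading cathepsin K of osteoclasts, was singled out after its values were seen: it read 4.42, 9.45 and 7.65 CPM against 3.79 and 2.74 CPM, with a log2 fold change of 1.14 (SE 0.36).

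Ctsh, the aminopeptidase cathepsin H, lay on the other side. It read 186, 173 and 172 CPM in the null mice and 239 and 259 CPM in the wildtype mice, with null mice close together and below both wildtype mice (log2 fold change -0.49, SE 0.10, adjusted p = 0.0727). Tpp1, the tripeptidyl peptidase that is mutated in a neuronal ceroid lipofuscinosis, was the other protease below the wildtype range, with a log2 fold change of -0.20. The abundant cathepsins varied less. Ctsd, the aspartic protease, read 823, 891 and 876 CPM in the null mice and 720 and 750 CPM in the wildtype mice (log2 fold change 0.23, SE 0.12). Ctsb, a cysteine protease, read 925, 985 and 1026 CPM against 840 and 890 CPM (0.18, SE 0.12). Both lay above the wildtype range by less than the fit could separate from 0. A same-strand gene model (Gm49369) shares 34.4% of the exon bases of Ctsd, but it is not among the genes counted. Lgmn, the asparaginyl endopeptidase legumain that processes cathepsins in proximal tubule cells, was also chosen after its values were seen, with 942, 1002 and 835 CPM in the null mice and 686 and 742 CPM in the wildtype mice (0.38, SE 0.14, adjusted p = 0.166).

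Macrophage markers were also higher in many of these libraries. Of 12 macrophage markers, 10 were above the wildtype range (83.3%, against 22.9% of all genes), Csf1r was below it and Lyz2 overlapped. Adgre1 (F4/80) read 7.36, 8.97 and 13.7 CPM in null mice 8637, 9210 and 9121 and 3.66 and 3.26 CPM in wildtype mice. None of the 12 was at 0 in any mouse. None passed the quasi-likelihood test, although all 12 had an unadjusted p under 0.05 (25.1% of all genes). The exact test and DESeq2 each called 8, against 9.82% and 10.3% of all genes. Their summed level was 125 to 273 CPM in null and 115 to 136 CPM in wildtype mice, which overlap. Mouse 9121 was highest, as it was for Ctss and Ctsc, whereas Ctsk was highest in mouse 9210. Their part in the protease levels was not tested.

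The glycosidases strip sugars from glycoproteins, glycolipids and glycosaminoglycans. Glb1, lysosomal beta-galactosidase, read 177, 147 and 123 CPM in null mice 8637, 9210 and 9121 and 220 and 245 CPM in wildtype mice (log2 fold change -0.64, SE 0.16, adjusted p = 0.102). Gusb, beta-glucuronidase, read 41.3, 46.8 and 43.6 CPM against 64.6 and 57.8 CPM (-0.48, SE 0.10, adjusted p = 0.0771). Both were lower in every null mouse than in either wildtype mouse without passing the test. Some 5.49% of the exon bases of Glb1 overlap Tmppe on the same strand. Tmppe had 1010, 746 and 665 counts in null mice 8637, 9210 and 9121 and 1291 and 1192 counts in wildtype mice 9055 and 9056. Naglu, Fuca1 and Galc, which act on heparan sulfate, fucosides and galactosylceramide, were the other members below the wildtype range, with log2 fold changes of -0.32, -0.23 and -0.27. Idua, the iduronidase of dermatan and heparan sulfate, was the only glycosidase besides Hexa above it (0.20), and Gaa, Gla, Neu1, Man2b1 and Manba overlapped.

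Galns had the lowest log2 fold change of all members. It encodes the sulfatase that removes sulfate from keratan and chondroitin sulfate. Its level was 136, 91.0 and 48.9 CPM in null mice 8637, 9210 and 9121, and 217 and 226 CPM in wildtype mice 9055 and 9056. The wildtype mice were close to each other and the null mice spread widely below them, at 92.0 ± 43.6 CPM (SD, n = 3) against 222 ± 6.66 CPM (SD, n = 2). The log2 fold change was -1.27 (SE 0.37) and the adjusted p 0.119. Without mouse 9121, the mouse set apart by its sex-linked transcripts, it was -0.97 (adjusted p = 0.0641), and without mouse 8637 it was -1.66 (adjusted p = 0.0153). Arsa, the sulfatase of sulfatide, was the only sulfatase above the wildtype range, at 19.5, 19.2 and 28.1 CPM against 16.6 and 12.2 CPM (0.63, SE 0.23, adjusted p = 0.164). Without mouse 9121 the log2 fold change of Arsa was 0.42. Arsb, Ids and Sgsh overlapped.

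Of the lipid-handling proteins, Psap was the most abundant member by level per kilobase of exon and Npc2 the one with the highest log2 fold change. Psap encodes prosaposin, the precursor of the saposins that present sphingolipids to their hydrolases. It read 2087, 2272 and 1888 CPM in null mice and 2578 and 2456 CPM in wildtype mice, below the wildtype range in every null mouse (log2 fold change -0.27, SE 0.15, adjusted p = 0.314). Npc2, the soluble cholesterol carrier, read 163, 193 and 180 CPM against 135 and 146 CPM (0.35, SE 0.11, adjusted p = 0.132). Asah1, acid ceramidase, was above the range with a log2 fold change of only 0.07. Lipa, Ppt1 and Smpd1 overlapped.

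Proximal tubule markers were lower in summed level in the null mice, as given above. Of the 9 markers, 4 lay below the wildtype range (44.4%, against 23.0% of all genes). Slc5a2 and Slc5a12 lay above it (22.2%, against 22.9%). None passed the quasi-likelihood test, and 3 had an unadjusted p under 0.05 (33.3%, against 25.1%). The exact test called none and DESeq2 called 2, against 9.82% and 10.3% of all genes. In the same 3 mice 15 members lay below the wildtype range, with Galns, Glb1 and Psap among them. Above it lay 19 members, with Lgmn, Ctsb, Ctsd and Npc2 among them. The part of tubule content in these members was not tested.

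Lamp1, Lamp2 and Npc1 were the membrane proteins below the wildtype range. Lamp1, the heavily glycosylated protein that lines the lysosomal membrane, read 1586, 1486 and 1433 CPM in the null mice and 1633 and 1698 CPM in the wildtype mice. The log2 fold change was -0.15 (SE 0.13, adjusted p = 0.517), and it turned to 0.01 when libraries were scaled by their total alone. Npc1, the membrane cholesterol transporter, read 35.3, 29.1 and 28.8 CPM against 35.5 and 36.8 CPM (-0.22, SE 0.12), and mouse 8637 was at the wildtype level. Cln3, the membrane protein mutated in juvenile neuronal ceroid lipofuscinosis, was the only one above, at 25.4, 30.7 and 35.2 CPM against 22.8 and 17.4 CPM (0.60, SE 0.18, adjusted p = 0.127). Without mouse 9121 the log2 fold change of Cln3 was 0.48. Some 7.65% of its exon bases overlap Apobr on the opposite strand. Cd63, Scarb2 and Mcoln1 overlapped. Grn, progranulin, which is cleaved into granulins in lysosomes, read 199, 218 and 214 CPM against 187 and 184 CPM (0.18, SE 0.09, adjusted p = 0.274).

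**Figure D2:**
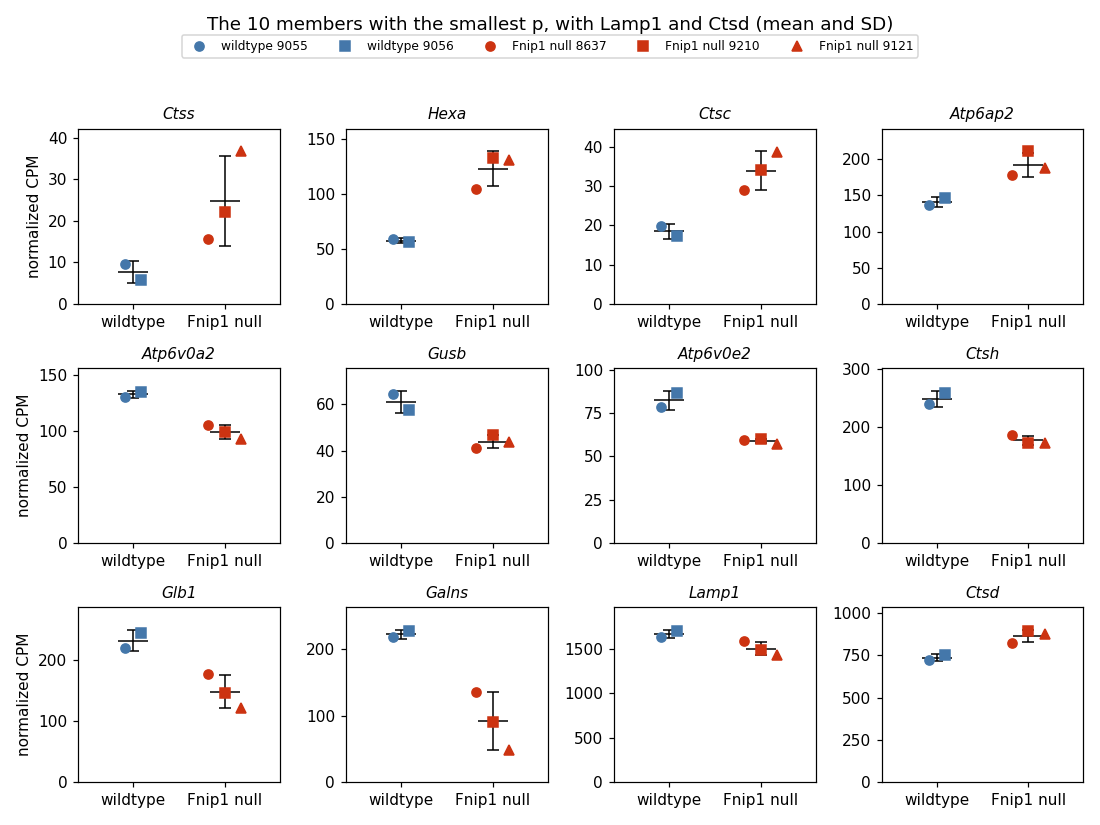
Normalized CPM (vertical axes, from 0) of the 10 members with the smallest p, ordered from the highest to the lowest log2 fold change, followed by Lamp1 and Ctsd. Each point is 1 mouse, and the line and bars give the mean and SD of the 2 wildtype and 3 null mice. Hexa is 104 to 132 CPM in null mice against 55.8 to 59.0 CPM. Null mice lie apart from wildtype mice in all 12 panels, of which 10 were chosen by p. In Lamp1 they do so narrowly, at 1433 to 1586 CPM against 1633 to 1698 CPM.

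The V-ATPase members lay close to wildtype. Of 19 tested, none passed the quasi-likelihood test, and 3 had an unadjusted p under 0.05 (15.8%, against 25.1% of all genes). The exact test called 2 and DESeq2 3 at a false discovery rate of 5%, against 9.82% and 10.3% of all genes. Above the wildtype range lay 4 (21.1%, against 22.9%) and below it 3 (15.8%, against 23.0%). All 19 were within 0.5 of 0 on the log2 scale, where 75.6% of all genes were, and their median was 0.05. The summed level was 3706, 3841 and 3497 CPM in null mice 8637, 9210 and 9121 and 3506 and 3799 CPM in wildtype mice 9055 and 9056, so the genotypes overlapped. The V0 sector had 1 of 8 above and 2 below (median -0.01), the V1 sector 2 of 9 above and 1 below (median 0.03), and the accessory proteins 1 of 2 above.

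In V0, the subunits below were Atp6v0e2 and Atp6v0a2. Atp6v0e2, an isoform of the small subunit e, read 59.4, 59.9 and 57.2 CPM in the null mice and 78.4 and 86.3 CPM in the wildtype mice (log2 fold change -0.49, SE 0.09, adjusted p = 0.0646). Its paralogue Atp6v0e overlapped between the genotypes, at 0.17. Atp6v0a2, the a2 isoform of the subunit that forms the proton path, read 106, 99.0 and 93.3 CPM against 130 and 135 CPM (-0.42, SE 0.09, adjusted p = 0.0800). The a1 isoform Atp6v0a1 overlapped, at -0.11. Tcirg1, the a3 isoform known from osteoclasts, read 22.7, 24.6 and 22.8 CPM against 20.8 and 20.3 CPM (0.18, SE 0.10). The 3 a-isoform genes among the members thus lay on different sides of the wildtype range, below for a2, above for a3 and overlapping for a1. The a4 isoform, Atp6v0a4, is among the subunits left out and also overlapped (0.17). Atp6v0c, which forms most of the rotor ring, was listed at only 6.82 CPM per kilobase in wildtype mice, against 87.4 for Atp6v0b. It has processed copies in the genome, reads that align to more than 1 place were not counted, and its level is uncertain.

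In V1, Atp6v1a, the catalytic subunit A, read 882, 831 and 751 CPM in null mice 8637, 9210 and 9121 and 824 and 909 CPM in wildtype mice, which overlap (log2 fold change -0.08, SE 0.13, and 0.08 with libraries scaled by their total alone). Atp6v1b2, the widely expressed nucleotide-binding subunit B2, read 518, 487 and 447 CPM against 539 and 562 CPM (-0.19, SE 0.12). Atp6v1e1, of the peripheral stalk, read 349, 389 and 348 CPM against 300 and 317 CPM (0.23, SE 0.11), and Atp6v1g1, its stalk partner, was also above the range (0.16). Within V1 the log2 fold changes ran from -0.19 to 0.23, with standard errors of 0.10 to 0.26.

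Of the accessory proteins, Atp6ap2, the (pro)renin receptor that is also needed for V-ATPase assembly, read 178, 211 and 188 CPM in the null mice and 137 and 146 CPM in the wildtype mice. The groups did not overlap (log2 fold change 0.45, SE 0.11, adjusted p = 0.0965). Atp6ap1, which is built into V0 during assembly, read 270, 308 and 298 CPM against 273 and 293 CPM, and its log2 fold change of 0.05 (SE 0.11) turned to -0.002 without wildtype mouse 9055.

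The 5 V-ATPase subunits left out by the rule, which belong to the 9 intercalated cell markers used here, are given for comparison. Of the 5, 4 lay above the wildtype range (22.9% of all genes), and the median log2 fold change was 0.77. Atp6v0d2 was the 1 that passed the quasi-likelihood test with a 2-fold change, on the higher side, where 0.404% of all genes were called. It read 104, 155 and 120 CPM in null mice 8637, 9210 and 9121 and 46.3 and 55.4 CPM in wildtype mice (1.31, adjusted p = 0.0496). That value is just under the threshold of 5%, and without mouse 9210 the test called no gene. The summed level of all 9 intercalated cell markers was 1307 to 1691 CPM in null and 936 to 987 in wildtype mice, without overlap. Of these markers, 7 lay above the wildtype range (77.8%, against 22.9% of all genes). The contribution of these cells to the levels of the V-ATPase members was not tested, and the difference between the members and the 5 subunits was not tested either.

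**Figure D3:**
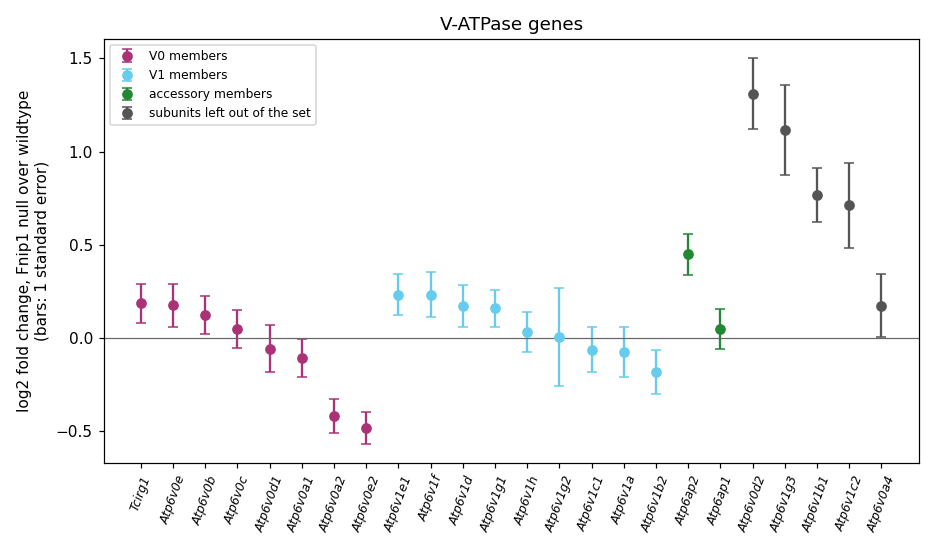
Log2 fold change, Fnip1 null over wildtype (vertical axis), of the 19 tested V-ATPase members and of the 5 subunits left out of the set, with bars of 1 standard error from edgeR. Members lie between -0.49 and 0.45, and 4 of the 5 subunits left out lie above 0.7.

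Levels of different genes were compared per kilobase of exon. In wildtype mice Psap was highest, at 917 CPM per kilobase, followed by Lamp1 (623), Ctsd (313), Lgmn (307) and Cd63 (249). In null mice the order was Psap (759), Lamp1 (561), Lgmn (399), Ctsd (367) and Cd63 (263), so Lgmn and Ctsd, nearly level in wildtype mice, stood in the opposite order. The V-ATPase members with the highest levels in wildtype mice were Atp6v1g1 (151), Atp6v1a (143) and Atp6v1f (141), all of V1, and the lowest of all members was Atp6v1g2, an isoform known from neurons, at 1.19. Hexa, at 28.8 in wildtype mice and 61.4 in null mice, lay in the middle of the range. Ctss and Ctsk, with the highest log2 fold changes, were among the low members (5.69 and 2.16 in wildtype mice).

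**Figure D4:**
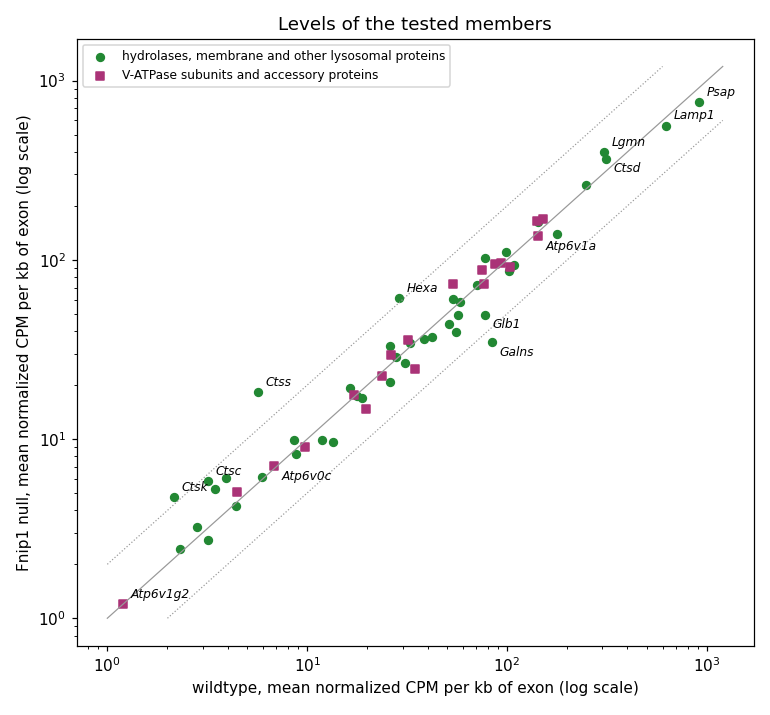
Mean normalized CPM per kilobase of exon of the 63 tested members in wildtype (horizontal) and Fnip1 null mice (vertical), both on log scales, with lines for equal levels (solid) and for a 2-fold difference (dotted). Levels span from 1.19 (Atp6v1g2) to 917 (Psap) in wildtype mice, and Hexa, Ctss, Ctsk and Galns lie outside the dotted lines.

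The promoters of the members were searched for the letters that TFEB and TFE3 are known to bind, since many lysosomal genes share them. RefSeq windows from 250 bases before to 50 bases after the start of a gene (GRCm38.p6) were on hand for 54 of the 66 members. The core CACGTG was found for 18 of the 54 members (33.3%), against 8.09% of all 27025 genes with a window and 11.6% of the genes tested here that had one. TCACGTGA was found for 8 (14.8%, against 1.12% and 2.08%). The longer motif contains the shorter, and each reads the same on both strands, so both strands were searched at once. The TCACGTGA sites are printed because they belong to members whose level could be set beside them. They are given as 1 site per gene (Ctsa and Gla have 2 in the window), 5′ to 3′ on the strand of the gene, with TCACGTGA in capitals.
Ctsa, chr2:164833749-164833778, plus strand: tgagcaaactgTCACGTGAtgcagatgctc
Cln3, chr7:126583340-126583369, minus strand: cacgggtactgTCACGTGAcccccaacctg
Ctsd, chr7:142387908-142387937, minus strand: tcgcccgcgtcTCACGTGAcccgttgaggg
Mcoln1, chr8:3500462-3500491, plus strand: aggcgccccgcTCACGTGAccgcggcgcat
Atp6v0d1, chr8:105566050-105566079, minus strand: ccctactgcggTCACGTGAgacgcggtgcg
Atp6v1a, chr16:44139373-44139402, minus strand: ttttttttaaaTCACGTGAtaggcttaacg
Atp6v0e, chr17:26676387-26676416, plus strand: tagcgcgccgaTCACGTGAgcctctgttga
Gla, chrX:134601215-134601244, minus strand: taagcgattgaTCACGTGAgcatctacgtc

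These 8 members had log2 fold changes from -0.10 (Mcoln1) to 0.60 (Cln3), with a median of 0.05, 5 above 0 and 3 below. The 45 other tested members with a window had a median of 0.05 as well. The V-ATPase genes with a site, Atp6v1a, Atp6v0d1 and Atp6v0e, all overlapped between the genotypes. The window of Hexa did not hold CACGTG, which says only that these letters are not in this window. A match is a description of the sequence, and binding was not measured.

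The transcripts of Tfeb and Tfe3 were near their wildtype level, and the activity of these factors was not measured. Tfeb read 31.9, 33.9 and 26.2 CPM in null mice 8637, 9210 and 9121 and 28.1 and 27.8 CPM in wildtype mice, and Tfe3 read 32.3, 30.8 and 33.7 CPM against 29.3 and 31.7 CPM. Both overlapped. Of the 7 genes of this group of factors and folliculin partners, 2 lay above the wildtype range (22.9% of all genes) and 2 below (23.0%). Above were Mitf (log2 fold change 0.42, SE 0.10) and Flcn (0.20, SE 0.10). Below were Tfec (-0.68, SE 0.28) and Fnip1, and only Fnip1 passed the test.

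Other lysosomal genes, 62 further hydrolases, membrane proteins and sorting factors, were fitted in the same test. Of 61 tested, 21 lay above the wildtype range (34.4%, against 22.9% of all genes) and 18 below (29.5%, against 23.0%). The median log2 fold change was 0.06. At a false discovery rate of 5%, 1 passed, on the lower side, where 0.180% of all genes were called. That gene, Arsg, encodes a sulfatase of heparan sulfate. It read 37.5, 32.1 and 35.8 CPM in null mice 8637, 9210 and 9121 and 63.6 and 65.2 CPM in wildtype mice (-0.87, SE 0.10, adjusted p = 0.0365), under a 2-fold change. The next on the lower side by p were Slc29a3, a lysosomal nucleoside transporter (-0.72, adjusted p = 0.0661), and Sumf1, the enzyme that activates all sulfatases (-0.33, adjusted p = 0.105). On the higher side they were Cd68, a glycoprotein of macrophage lysosomes (1.52), Pla2g15, a lysosomal phospholipase (0.64), and Cln6, an endoplasmic reticulum protein needed for the transport of lysosomal enzymes (0.28), with adjusted p-values of 0.110 to 0.118.

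The number of members called depended on the test and on mice 8637, 9210, 9055 and 9056. At the false discovery rate alone, edgeR's exact test called 9 members, its likelihood ratio test 10 and DESeq2 12, against 9.82%, 10.6% and 10.3% of all genes tested. The quasi-likelihood test without the filter on low counts called 2, against 1.33% of 17850 genes. With the 2-fold threshold as well, the other 3 tests called 3, 4 and 4, against 4.11%, 4.53% and 3.51% of all genes. At the false discovery rate alone, the exact test called Hexa, Ctss and Ctsc on the higher side, where 6.18% of all genes were called, and Galns, Glb1, Ctsh, Gusb, Atp6v0e2 and Atp6v0a2 on the lower, with 3.63% of all genes. Without mouse 8637, whose level of Hexa, Ctss and Galns was the closest to wildtype among the null mice, the quasi-likelihood test called 17 members, against 19.7% of all genes. These were 8 higher (9.87% of all genes) and 9 lower (9.85%), and 4 of them passed the 2-fold threshold (6.49%). Without mouse 9210, 9055 or 9056 it called no member and no other gene (0.00%).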

How the data were processed

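Libraries of 3 Fnip1 null and 2 wildtype mice were analysed here, and a further wildtype mouse that the study counts was not analysed here. The authors sequenced kidney cortical RNA as paired-end reads from TruSeq libraries. For mouse 9210 the name of the deposited file carries a different mouse number, and the sample label was followed. The authors filtered reads for quality, aligned them to mm10 with TopHat2 2.1.0 and counted them per gene with HTSeq 0.6.1, and the deposited values are raw counts per gene symbol, without normalization, from which reads aligned to more than 1 place are left out. The strand setting of the counting is not given in the sources used here. Rows that name no gene (39.0 to 42.8% of each file's total) were left out.

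Genotypes were compared with edgeR 4.0.16 under R 4.3.3, using TMM normalization, the quasi-likelihood test and Benjamini-Hochberg adjustment over 13874 genes. Genes needed at least 10 counts in 3 or more of the 5 mice. Called genes passed a false discovery rate of 5% and at least a 2-fold change, or the false discovery rate alone. For log2 fold changes the standard error (SE) is the size of the change over the square root of its F statistic, and other errors are SD. The fits were tested on simulated data. An exact permutation test of 3 against 2 mice cannot give a p below 0.1, so counts outside the wildtype range carry no test. No 2 libraries of a genotype agreed within sampling noise (chi-square per degree of freedom 9.73 to 66.5). Whether the mice were littermates is not given. The quasi-likelihood p-values set the genotype difference against the spread within genotypes, which is estimated with information from all genes tested. They speak only for these 5 mice.

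Coordinates and exon lengths are those of GENCODE M21 (GRCm38), matched by symbol. Promoter windows are from RefSeq, GRCm38.p6. Members and gene lists were chosen with earlier results of these data known. Genes with values per mouse were those called, the highest and lowest log2 fold change of each role group, the 10 smallest p, and Lamp1, Ctsd, Ctsb and Atp6v1a, and for other lysosomal genes the 3 smallest p in each direction. Further genes are named as chosen after their values were seen, and genes named without values per mouse complete the account of a group. Alternatives were the likelihood ratio and exact tests of edgeR, DESeq2 1.42.0, other scalings and filters, and leaving out each mouse.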

Additional observations from a re-analysis of the deposited data

How the results depend on the processing

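Under edgeR's exact test, likelihood ratio test and DESeq2, the members called at a false discovery rate of 5% and a 2-fold change numbered 3, 4 and 4 in place of 1, those called by the false discovery rate alone 9, 10 and 12 in place of 1, and the other lysosomal genes 3, 3 and 7 in place of 1. All genes called numbered 570, 628 and 487 in place of 74 with the fold threshold, and 1362, 1472 and 1432 in place of 102 without it. With library size only, 32 members lay above and 7 below the wildtype range (37.2% and 11.4% of all genes), and the median log2 fold change of the members was 0.20, but the fold changes of all genes shifted by a median of 0.16, and Lamp1 (0.011) and Atp6v1a (0.083) changed sign. Without the filter on low counts, 2 members were called by the false discovery rate alone, Hexa and Ctsc, against 1.33% of 17850 genes. Leaving out each mouse gave 0 to 4 members called, 0 to 17 by the false discovery rate alone and 0 to 16 other lysosomal genes. The highest values were without mouse 8637 and the 0s without mice 9210, 9055 or 9056. The median log2 fold change ran from -0.018 (without 9055) to 0.073 (without 9056), and that of Atp6ap1 from -0.0024 (without 9055) to 0.10 (without 8637). The cause of these shifts was not tested. Over the 10 settings other than the exact and likelihood ratio tests, of 240 values for named members 213 kept their direction and side of the threshold, 21 were called only in the alternative, 3 lost a call and 3 changed sign. The exact and likelihood ratio tests each called 8 named members besides Hexa. No paired analysis was possible because the genotypes share no replicate numbers. Too few counts were found for Atp6v0c-ps2, Atp6v1e2 and Atp6ap1l to be tested, and whether depth was the reason was not tested.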
